A study of Homo sapiens with 21 samples.

Results

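The genes described here are the insulin-like growth factor (IGF) binding proteins IGFBP2, IGFBP3, IGFBP4, IGFBP5, IGFBP6 and IGFBP7, and the receptors IGF1R and IGF2R. They were chosen by symbol, with earlier results of these data known, and make up 8 of the 20970 genes in the 4 RNA-seq tables of the series. All 8 were measured in the FADU knockdown table and in the FADU overexpression table. IGFBP2 and IGFBP7 were not analysed here in BFTC909 cells, and IGFBP5 was not analysed here in the mutant clones, so 6 and 7 members had values there.

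IGFs are growth factors that bind IGF1R, a receptor tyrosine kinase that signals through IRS adaptors to PI3K and AKT. IGF2R, the cation-independent mannose-6-phosphate receptor, takes up IGF2 and carries enzymes to lysosomes, and has no kinase of its own. The binding proteins are secreted, hold IGFs with high affinity outside the cell and limit or prolong their access to IGF1R. IGFBP3 is the main carrier in serum and is a well-known hypoxia-responsive gene, IGFBP6 prefers IGF2, and IGFBP7 binds IGFs only weakly.

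The study asked which RNAs change with hypoxia and with METTL4, a DNA N6-adenine methyltransferase. The knockdown experiment used FADU, a head and neck cancer line, and BFTC909, a line of upper tract urothelial cancer. Each line was given a scrambled siRNA (Scr-si) in normoxia (18% O2), Scr-si in hypoxia (1% O2) or an siRNA against METTL4 (METTL4-si) in hypoxia for 18 h, with 2 libraries per group. A METTL4-si group in normoxia was not analysed here, so an effect of the siRNA without hypoxia cannot be told apart from an effect on the hypoxia response. Further FADU lines were stable transfectants kept in normoxia that carried a control vector, METTL4 or the long non-coding RNA RP11-390F4.3, again with 2 libraries each. The last set held 1 CRISPR control and 2 clones, each grown from a single cell, in which prime editing had changed the catalytic DPPW motif of METTL4, all in hypoxia. The 2 columns used for RP11-390F4.3 carry another name in the table and were assigned to it because the other columns match the other samples. The labels do not say that same-group libraries came from separate cultures, so p-values measure the spread between these libraries, which may be technical.

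Reads assigned to genes numbered 17781791 to 25410656 per library. METTL4 RNA was 25.3 and 26.6 in the FADU Scr-si hypoxia libraries and 24.2 and 27.1 in the libraries labelled METTL4-si, so it was not clearly lower there, and these libraries are called by their label throughout. In BFTC909 it was 15.6 and 19.0 against 12.2 and 14.4, without passing the test (adjusted p = 0.0717, limma). CA9, a classical hypoxia target, rose from 2.33 and 2.55 to 31.0 and 37.8 in FADU Scr-si hypoxia. It rose from 0.358 and 1.17 to 54.0 and 56.2 in BFTC909 Scr-si hypoxia. In the hypoxia libraries labelled METTL4-si it was 1.87 and 2.22 in FADU and 5.53 and 5.84 in BFTC909. CA9 was therefore not above normoxia in those FADU libraries and was far below Scr-si hypoxia in both lines. METTL4 was 139 and 158 in its overexpressing line against 32.7 and 35.4 with the control vector, and RP11-390F4.3 itself was not analysed here. All 10 squamous markers were measured in FADU. In its knockdown libraries they summed to 4034 to 4418 with Scr-si and to 2536 and 2832 with METTL4-si. Of 10 urothelial and simple epithelial markers 4 were measured in BFTC909 (KRT8, KRT18, PPARG and GATA3) and summed to 31.2 to 113 in 5 of its libraries and 1243 in the second METTL4-si library, while 7 of 9 fibroblast markers summed to 1252 to 4912. Hormone-receptor-positive breast markers were raised in the first FADU normoxia library, the first FADU METTL4-si library and the second RP11-390F4.3 column. In the second BFTC909 METTL4-si library this held for part of the list only. Of its 3 measured genes GATA3, also on the urothelial list, and XBP1 were highest there and CA12 was not. Their sum was 610 there, 431 in the first METTL4-si library, 425 and 442 in normoxia, and 1177 and 1207 in Scr-si hypoxia. All 4 are called libraries with raised breast markers below. Values without these 4 libraries are given beside the member results. Leaving libraries out makes some groups 1 library, which is then assumed to vary like the groups that still hold 2. In FADU that leaves the hypoxia pair as the only source of spread, so no p-value is given there without these libraries. Among the knockdown groups the METTL4-si pairs varied most. The chi-square per degree of freedom between the reads of a pair was 28.3 in FADU and 23.1 in BFTC909 for METTL4-si. The other pairs of these lines gave 2.06 to 8.90. In bulk RNA, fewer cells of a type and less RNA per cell cannot be told apart.

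Values are TMM-normalized CPM, that is, reads scaled to the size of the library and by the trimmed mean of M values. A change passed the test when its limma p-value, adjusted by the Benjamini-Hochberg method over all genes tested, was under 0.05 and its size was at least 1.3-fold on the log2(value + 1) scale.

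The promoters of the 3 binding proteins that rose in BFTC909 hypoxia are printed here side by side, picked by that rise alone. They run from 250 bases before to 50 bases after the start site, 5′ to 3′ on the gene's strand, from RefSeq on GRCh38.p14. Capitals mark ACGTG or GCGTG on either strand, the core of the motif bound by hypoxia-inducible factors, and overlapping matches are counted separately. IGFBP3 lies at chr7:45921223-45921522 (minus strand), IGFBP5 at chr2:216695500-216695799 (minus strand) and IGFBP6 at chr12:53097417-53097716 (plus strand).
IGFBP3: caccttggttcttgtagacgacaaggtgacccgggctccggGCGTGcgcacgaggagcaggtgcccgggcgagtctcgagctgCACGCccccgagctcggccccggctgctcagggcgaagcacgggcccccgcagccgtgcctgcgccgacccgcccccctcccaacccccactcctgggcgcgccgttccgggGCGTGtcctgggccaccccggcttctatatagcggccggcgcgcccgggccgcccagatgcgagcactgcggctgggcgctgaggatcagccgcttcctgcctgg
IGFBP5: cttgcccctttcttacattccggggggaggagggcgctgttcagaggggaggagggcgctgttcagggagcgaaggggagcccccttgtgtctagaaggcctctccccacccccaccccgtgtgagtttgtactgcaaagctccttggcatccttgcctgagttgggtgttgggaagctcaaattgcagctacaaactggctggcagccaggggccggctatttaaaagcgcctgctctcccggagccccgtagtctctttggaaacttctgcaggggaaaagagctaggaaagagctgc
IGFBP6: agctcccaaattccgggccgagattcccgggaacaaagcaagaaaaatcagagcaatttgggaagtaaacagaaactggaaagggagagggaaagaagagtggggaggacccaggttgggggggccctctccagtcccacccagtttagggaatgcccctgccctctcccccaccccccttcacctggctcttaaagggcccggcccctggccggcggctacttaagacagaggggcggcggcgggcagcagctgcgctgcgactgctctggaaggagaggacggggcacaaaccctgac

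The IGFBP3 window held 3 matches, which began 209, 167 and 55 bases before the start site. The IGFBP5, IGFBP6 and IGFBP4 windows held 0. IGF1R held 5 and IGF2R held 6, and of the 3 windows of IGFBP2, 2 held 1 each. Across 35116 windows of the same length, 48.4% held at least 1 match and 10.1% at least 3. A match is a description of the letters in the window, and these data hold no measurement of binding there.

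Levels of different genes were compared per kilobase of merged exons, with gene models on GRCh37, the build of the deposited values. In FADU normoxia IGFBP6 stood highest at 58.8 and 61.1 CPM per kb. It was followed by IGFBP4 at 30.04 and 31.7, IGF1R at 16.9 and 18.0, and IGF2R at 10.8 and 11.1. IGFBP3 (8.63 and 9.31) and IGFBP7 (8.29 and 8.80) overlapped, and IGFBP5 and IGFBP2 were at the bottom and overlapped too. In FADU hypoxia IGFBP3 (53.9 and 67.4) reached the range of IGFBP6 (63.4 and 75.1), and the libraries of these genes overlapped.

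BFTC909 normoxia had another order. IGF2R was highest at 29.7 and 29.9 CPM per kb, followed by IGFBP6 at 9.75 and 9.84 and IGF1R at 6.80 and 6.97. IGFBP5 (3.76 and 4.24) and IGFBP3 (3.13 and 4.71) overlapped, and IGFBP4 was lowest at 0.190 and 0.264. In hypoxia IGFBP3 came first at 71.8 and 72.0, above IGF2R at 31.7 and 32.9 and IGFBP5 at 30.5 and 31.4. The tables of the lines were normalized separately, so levels are compared within a line.

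The summed binding-protein RNA per kb in FADU was 112 and 107 in normoxia, 145 and 171 in hypoxia, and 119 and 101 in the libraries labelled METTL4-si. IGFBP3 supplied 7.69% and 8.66% of that sum in normoxia, 37.2% and 39.3% in hypoxia, and 8.13% and 11.5% with METTL4-si. Without IGFBP3 the sum was 104 and 98.1 in normoxia and 91.1 and 104 in hypoxia, so the other 5 binding proteins together overlapped between these groups. In BFTC909 the sum covers 4 binding proteins, so its shares have another base than in FADU. It went from 17.0 and 18.9 in normoxia to 118 and 119 in hypoxia, with 18.4% and 24.9% from IGFBP3 before and 60.7% and 60.6% after. With METTL4-si the sum was 33.2 and 49.5, and IGFBP5 supplied 60.8% and 55.2% of it. These shares depend on the merged exon lengths, which count rarely used exons too.

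**Figure D1:**
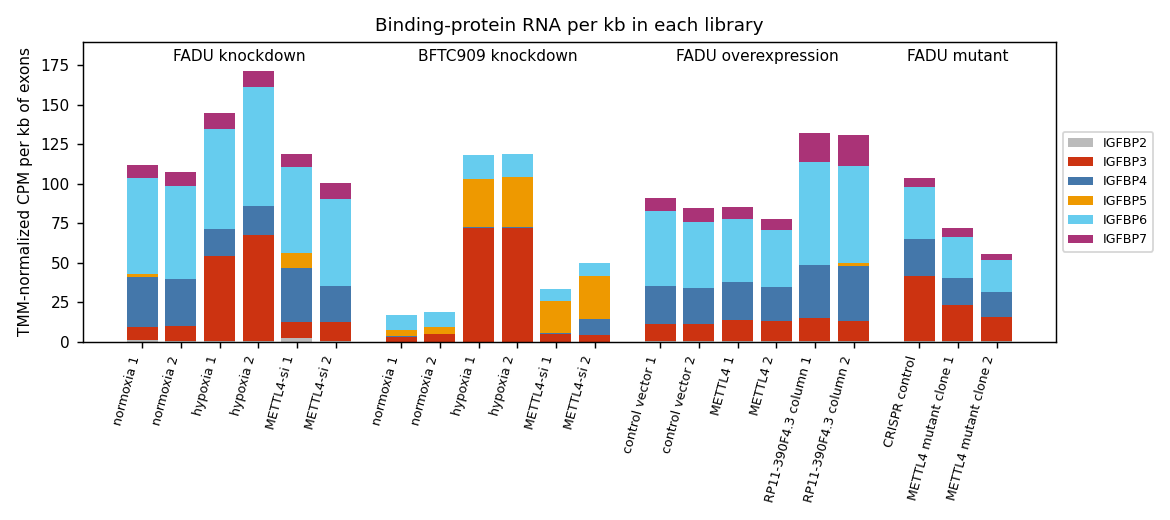
Summed binding-protein RNA (TMM-normalized CPM per kb of merged exons, y axis) in each of the 21 libraries, stacked by gene. Within each knockdown line the IGFBP3 segment is tallest in Scr-si hypoxia, at 60.7% and 60.6% of the sum in BFTC909 and 37.2% and 39.3% in FADU. Among the overexpression libraries IGFBP7 is thickest in the RP11-390F4.3 columns. The sum covers 4 binding proteins in BFTC909, 5 in the mutant set and 6 in the others, and each set was normalized separately.

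Under hypoxia IGFBP3 rose in both lines, IGFBP5 and IGFBP6 rose in BFTC909, and IGFBP4 fell in FADU. In FADU 1 of 8 members rose, where 9.73% of all genes tested rose, and 1 fell, where 9.65% fell. In BFTC909 3 of 6 rose, where 17.9% of all genes rose, and 0 fell, where 18.3% fell (at an unadjusted p under 0.05 and 1.3-fold 4 rose and 0 fell, and edgeR also called 3 up and 0 down). With each library centred on its median, 3215 genes rose and 2107 fell in BFTC909, against 2667 and 2715 as normalized. The median log2 change of the members was 0.15 in FADU and 0.63 in BFTC909, and that of all genes tested was -0.03 and -0.02.

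IGFBP3 (ENSG00000146674, chr7:45951844-45961473, minus strand, GRCh37) had the largest log2 change with hypoxia of the members measured in each line. In FADU it was 39.4 and 42.5 in normoxia, 246 and 308 in hypoxia, and 44.2 and 52.7 with METTL4-si in hypoxia. Both hypoxia libraries lay far above the other 4, and the normoxia and METTL4-si libraries did not overlap but lay close together. Its log2 change with hypoxia was 2.72 ± 0.13 (SE, n = 2 per group, adjusted p = 0.000105, limma), a 6.59-fold rise. Its log2 change with METTL4-si in hypoxia was -2.49 ± 0.13, a 5.61-fold fall (adjusted p = 0.000136, limma). These log2 changes were 2.67 and -2.36 without the libraries with raised breast markers.

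In BFTC909 IGFBP3 was 14.3 and 21.5 in normoxia, 328 and 329 in hypoxia, and 21.3 and 19.8 with METTL4-si. The METTL4-si libraries lay inside the normoxia range. The rise with hypoxia was 4.15 ± 0.16 on the log2 scale (17.7-fold, adjusted p = 1.06e-05, limma), and the value with METTL4-si fell by 3.93 ± 0.16 (adjusted p = 2.09e-05, limma). Without the second METTL4-si library the latter was -3.88. Both comparisons use the same Scr-si hypoxia libraries.

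The METTL4-si hypoxia libraries were also set against Scr-si in normoxia. For IGFBP3 the log2 difference was 0.23 ± 0.13 in FADU (95% interval -0.08 to 0.54, adjusted p = 0.221, limma) and 0.22 ± 0.16 in BFTC909 (-0.16 to 0.59, adjusted p = 0.285). The intervals allow a level up to 1.45-fold above normoxia in FADU and 1.51-fold in BFTC909. Without the first BFTC909 normoxia library the difference was -0.06, and without the second it was 0.49, above 1.3-fold, each time with 1 normoxia library. The difference was 0.30 in FADU and 0.27 in BFTC909 when the libraries with raised breast markers were left out.

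The IGFBP3 response was larger in BFTC909 than in FADU. In 1 fit over the 12 libraries, its hypoxia response was larger by 1.43 ± 0.24 on the log2 scale (adjusted p = 0.00219, limma), and its METTL4-si effect was more negative, with a difference of -1.45 ± 0.24 (adjusted p = 0.00203). With the raised-marker libraries left out these were 1.48 and -1.52. The hypoxia response also differed for IGFBP6 by 0.39 ± 0.12 (adjusted p = 0.0394, limma). That made 2 of 6 members higher in BFTC909, where 11.0% of genes were, and 0 lower, where 12.8% were. IGFBP5 and IGFBP4 did not pass, although their differences in hypoxia response were larger than that of IGFBP6. With 1 library left out these were 2.96 to 5.77 for IGFBP5 and 1.28 to 1.62 for IGFBP4 on the log2 scale. The METTL4-si effect differed downwards for 2 of 6 members (IGFBP3 and IGFBP6) where 9.12% of genes did, and upwards for 0 where 14.4% did. With median centring 1419 genes differed upwards and 1383 downwards in the METTL4-si effect, against 1953 and 1240 as normalized. The IGFBP6 hypoxia difference was close to the threshold: without either FADU normoxia library, the first FADU hypoxia library or any of the 4 BFTC909 Scr-si libraries its adjusted p was between 0.074 and 0.151. With the raised-marker libraries left out the IGFBP6 differences were 0.37, under 1.3-fold, for hypoxia and -0.61 for METTL4-si.

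**Figure D2:**
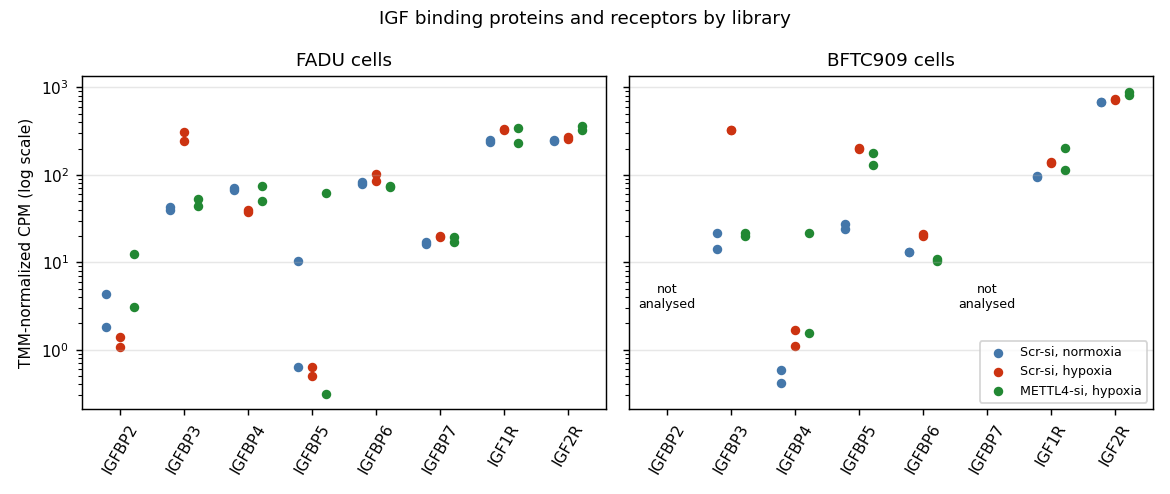
Each point is 1 library (TMM-normalized CPM, log axis) of FADU (left) or BFTC909 (right), coloured by treatment, for the 8 members. IGFBP3 in hypoxia (246 to 329) stands well above normoxia and METTL4-si in both lines, IGFBP5 in BFTC909 stays at 130 and 177 with METTL4-si, and single METTL4-si libraries stand apart for IGFBP2 and IGFBP5 in FADU and IGFBP4 in BFTC909.

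IGFBP5 (ENSG00000115461), a binding protein that also attaches to extracellular matrix, behaved otherwise in BFTC909. It was 24.3 and 27.4 in normoxia, 197 and 203 in hypoxia, and 130 and 177 with METTL4-si. The hypoxia libraries were the highest, and the METTL4-si libraries lay between the groups, well above normoxia. It rose 7.49-fold with hypoxia (log2 change 2.91 ± 0.14, adjusted p = 1.6e-05, limma). With METTL4-si the log2 difference from Scr-si in hypoxia was -0.40 ± 0.14 and did not pass (adjusted p = 0.0613), and it stayed 5.70-fold above normoxia (log2 2.51 ± 0.14, adjusted p = 1.93e-05). Without the second METTL4-si library the difference was -0.61, with 1 library on that side, and the difference from normoxia was 2.29. With all libraries, the difference from Scr-si in hypoxia passed with median centring (-0.49, adjusted p = 0.0185, limma). It also passed with the replicate number entered as a block.

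The summed level of fibroblast markers moved with IGFBP5 in BFTC909: 7 of 9 were measured, and the sum was 1252 and 1352 in normoxia, 4701 and 4912 in hypoxia, and 2624 and 2829 with METTL4-si. COL1A2, a collagen chain, made up most of it, at 805 to 3755. The list did not move as one: COL1A1 was 199 and 213, then 726 and 771, then 434 and 511, while COL3A1 was 108 and 109 in hypoxia and 95.95 and 156 with METTL4-si. POSTN was highest with METTL4-si, at 4.97 and 4.78 against 0.461 to 1.34. THY1 was 232 and 238 in normoxia, 253 and 259 in hypoxia, and lower with METTL4-si at 137 and 144. The IGFBP3 and IGFBP6 levels of BFTC909 rose and fell over the same groups. The part of these markers in any of the 3 results was not tested. The antisense transcript DIRC3-AS1 overlaps IGFBP5, so its reads may not be separate.

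In FADU IGFBP5 was 10.4 and 0.625 in normoxia, 0.629 and 0.502 in hypoxia, and 62.3 and 0.311 with METTL4-si. The high libraries were the first normoxia and the first METTL4-si library, and the other 4 were near the bottom of the measured range. No contrast passed (adjusted p = 0.574 for hypoxia, 0.289 for METTL4-si and 0.662 for METTL4-si against normoxia), and without those 2 libraries the METTL4-si difference turned from 2.54 to -0.25 on the log2 scale. In the same 2 libraries the 8 breast markers measured summed to 239 and 845, against 75.5 to 117 in the other 4, and all 8 were highest in the first METTL4-si library. TFF1, an oestrogen-induced secreted peptide and one of these markers, was at 26.2 and 135 there and listed at 0 in the others. The 2 fibroblast markers measured in FADU were also higher in those libraries, at 25.6 and 116 in sum against 4.40 to 5.87 in the others. The 7 urothelial and simple epithelial markers measured summed to 3949 and 3577 there. They summed to 3460 in the second normoxia library, 1509 in the second METTL4-si library, and 2113 and 2128 in hypoxia. The part of any of these markers in the IGFBP5 values was not tested.

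IGFBP6 (ENSG00000167779) moved in the direction of IGFBP3 with smaller size. In BFTC909 it was 13.2 and 13.1 in normoxia, 20.96 and 19.9 in hypoxia, and 10.3 and 10.9 with METTL4-si. The 3 groups did not overlap, with METTL4-si lowest. It rose by 0.59 ± 0.09 on the log2 scale with hypoxia (adjusted p = 0.00208, limma) and fell by 0.89 ± 0.09 with METTL4-si (1.85-fold lower, adjusted p = 0.000621). Without the second METTL4-si library the latter was -0.93. In FADU it was 82.2 and 79.2 in normoxia, 85.3 and 101 in hypoxia, and 73.1 and 74.6 with METTL4-si, and its log2 changes of 0.20 ± 0.09 and -0.33 ± 0.09 did not reach the criteria. They were 0.23 and -0.31 without the libraries with raised breast markers.

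IGFBP4 (ENSG00000141753), which is generally an inhibitor of IGF action and is cut by the protease PAPPA, went the other way in FADU. It was 69.8 and 66.2 in normoxia, 38.0 and 40.0 in hypoxia, and 75.2 and 50.5 with METTL4-si. The hypoxia libraries were the lowest and overlapped no other group. It fell by 0.79 ± 0.17 on the log2 scale with hypoxia (adjusted p = 0.0191, limma) and rose by 0.65 ± 0.17 with METTL4-si (adjusted p = 0.0264). Leaving out any of the 4 libraries of the hypoxia comparison raised its adjusted p to 0.0989 to 0.123, with log2 changes of -0.82 to -0.75. The METTL4-si change was 0.36 without the first METTL4-si library, under 1.3-fold. Leaving out a normoxia library (adjusted p = 0.0565 and 0.0571) or a hypoxia library (0.141 and 0.114) also ended that call.

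In BFTC909 IGFBP4 was low, at 0.582 and 0.419 in normoxia, 1.11 and 1.67 in hypoxia, and 1.55 and 21.6 with METTL4-si. The second METTL4-si library stood alone. The log2 difference of METTL4-si from normoxia, 2.34 ± 0.84, passed the test (adjusted p = 0.0456), and without that library it was 0.77 on the log2 scale. Leaving out either library of normoxia (adjusted p = 0.121 and 0.139) or of Scr-si hypoxia (0.083 and 0.0829) ended the call. In that library GATA3, a transcription factor of breast and urothelium, was at 128 against 0.573 to 0.964 in the other 5, and KRT8, a keratin of simple epithelia, was at 715 against 2.60 to 7.55. The part of such cells in the IGFBP4 value was not tested.

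IGFBP2 (ENSG00000115457) in FADU was 4.36 and 1.83 in normoxia, 1.08 and 1.41 in hypoxia, and 12.3 and 3.11 with METTL4-si. Here too the first normoxia and the first METTL4-si library were the highest of their groups. It rose with METTL4-si by 1.72 ± 0.54 on the log2 scale (adjusted p = 0.0489, limma). This call ended when either normoxia library (adjusted p = 0.0664 and 0.0671) or either hypoxia library (0.197 and 0.16) was left out. Without the libraries with raised breast markers it was 0.88, from 1 METTL4-si library. In FADU METTL4-si 2 of 8 members rose (IGFBP2 and IGFBP4), where 12.5% of all genes tested did, and 1 fell, where 15.3% did. Without the libraries with raised breast markers no count is given for FADU, because only the hypoxia pair would supply the spread. In BFTC909 METTL4-si 2 of 6 fell, where 11.7% did, and 0 rose, where 13.2% did (edgeR: 2 and 0, and 3 and 0 at an unadjusted p under 0.05). With median centring 1489 genes rose and 2510 fell there, against 1968 and 1736 as normalized.

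IGFBP7 (ENSG00000163453) was measured in FADU, at 16.0 and 17.0 in normoxia, 19.6 and 20.1 in hypoxia, and 16.8 and 19.6 with METTL4-si. The hypoxia libraries were above normoxia by less than the criteria (log2 change 0.25 ± 0.10, adjusted p = 0.119, limma). Exons of POLR2B overlap those of IGFBP7 on the other strand. The kit marks strand but the setting used in counting is not given in the sources used here, so reads of these genes may not be separate.

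IGF1R (ENSG00000140443), the signalling receptor, was higher in both hypoxia libraries than in normoxia in each line. In FADU it was 251 and 236 in normoxia, 329 and 339 in hypoxia, and 348 and 231 with METTL4-si. In BFTC909 it was 94.8 and 97.2, then 137 and 140, and then 115 and 201. The METTL4-si libraries spread on both sides of the hypoxia libraries, with the high values in the libraries where breast markers were raised. The log2 change with hypoxia was 0.45 ± 0.17 in FADU (adjusted p = 0.102, limma) and 0.52 ± 0.22 in BFTC909 (adjusted p = 0.0856, limma), and neither passed. In both lines it did pass with median centring, at an unadjusted p under 0.05, and with the compared groups alone.

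Because all groups share 1 estimate of the spread, the 2 discordant METTL4-si libraries enter it. Without the libraries with raised breast markers, left out after seeing the data, the IGF1R difference with hypoxia was 0.50 in FADU and 0.52 in BFTC909. The FADU value came from 1 normoxia library. The FADU METTL4-si difference was -0.53, from 1 METTL4-si library. In BFTC909 that difference was -0.26 without them and 0.13 ± 0.22 with them. Against normoxia, IGF1R in the BFTC909 METTL4-si libraries passed the test (log2 0.66 ± 0.22, adjusted p = 0.0341). Without the second METTL4-si library this value was 0.26, under 1.3-fold, and without a normoxia library (adjusted p = 0.121 and 0.105) or a Scr-si hypoxia library (0.0684 and 0.0683) it also lost its call.

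IGF2R (ENSG00000197081) reached its highest levels with METTL4-si. In FADU it was 244 and 252 in normoxia, 260 and 271 in hypoxia, and 328 and 358 with METTL4-si. In BFTC909 it was 676 and 672, then 716 and 743, and then 896 and 823. In neither line did the METTL4-si libraries overlap another group. The log2 change with METTL4-si was 0.37 ± 0.07 in FADU (adjusted p = 0.00865, limma) and 0.23 ± 0.07 in BFTC909 (adjusted p = 0.0377), both short of 1.3-fold. They were 0.43, which is above 1.3-fold, and 0.30 without the libraries with raised breast markers. Against normoxia it was 0.46 ± 0.07 in FADU, which passed (adjusted p = 0.00588) and made 1 of 8 members up where 8.13% of all genes were and 0 down where 13.5% were. Without either normoxia library its adjusted p was 0.0551 and 0.0556, and without the libraries with raised breast markers the value was 0.51. In BFTC909 3 of 6 members were up in that comparison (IGFBP4, IGFBP5 and IGF1R), where 24.4% of all genes were, and 0 were down, where 23.2% were. The pseudogene CHP1P2 overlaps exons of IGF2R on the same strand, so reads from the shared stretch may not all be counted for IGF2R.

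**Figure D3:**
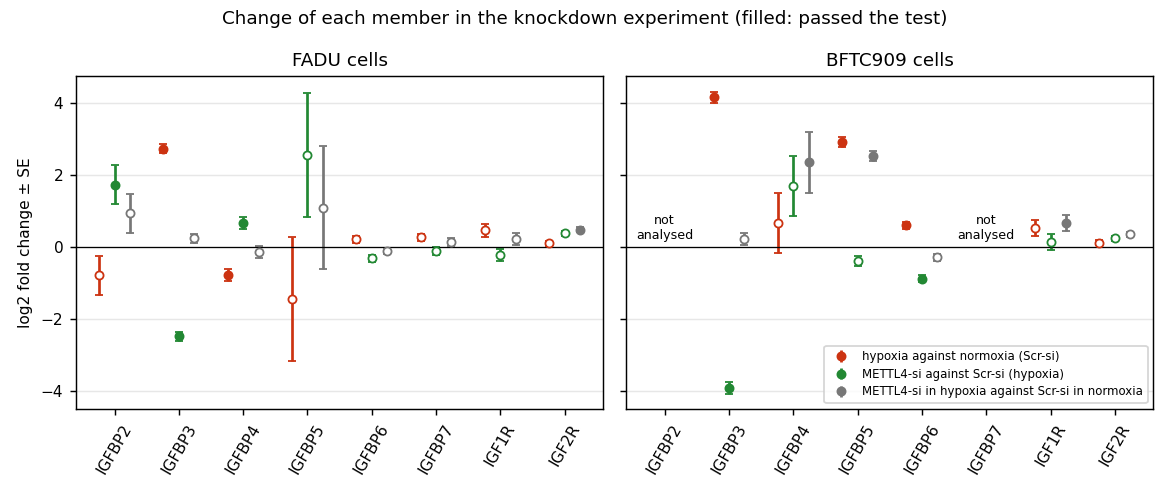
Log2 fold change on the log2(value + 1) scale (points, with the limma SE as bars) of each member in 3 contrasts per line, FADU left and BFTC909 right. Filled points passed the test. IGFBP3 sits at 2.72 and -2.49 in FADU and 4.15 and -3.93 in BFTC909, with METTL4-si against normoxia near 0, while the IGFBP5 bars in FADU span several log2 units.

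The 4 libraries with raised breast markers can be read from GATA3 and the binding proteins beside it. In FADU GATA3 was 41.1 in the first normoxia and 216 in the first METTL4-si library, against 2.19 to 3.19 in the others. In the overexpression table it was 16.5 in the second RP11-390F4.3 column against 1.68 to 2.98, and IGFBP5 there was 13.5 against 0.0497 to 1.10. The 6 breast markers measured in that table summed to 131 in this column and 86.7 to 104 in the other 5.

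**Figure D4:**
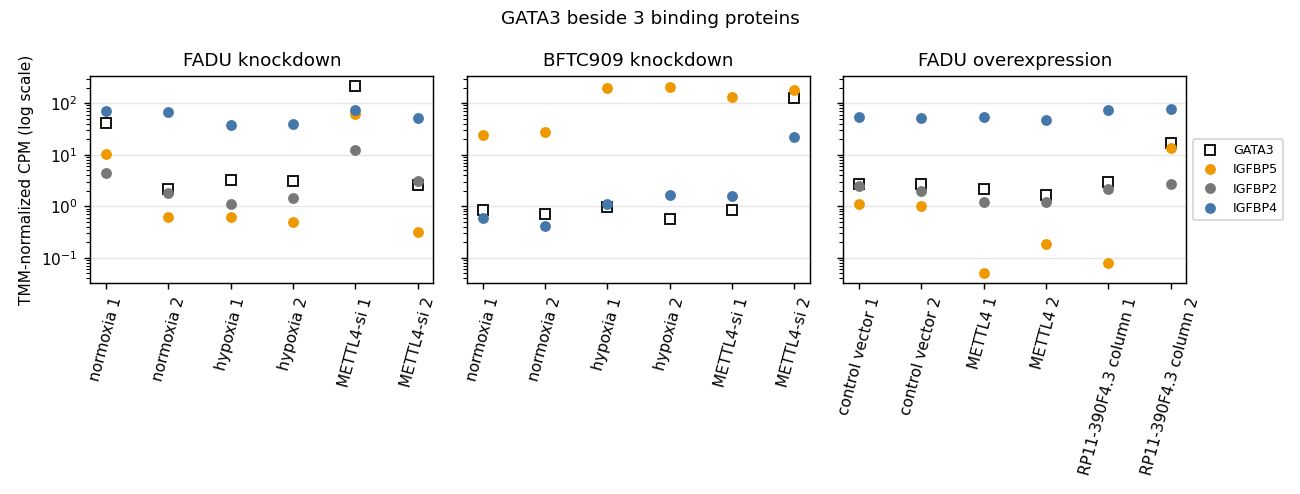
GATA3 (open squares) with IGFBP5, IGFBP2 and IGFBP4 (filled circles) in each library, in TMM-normalized CPM on a log axis, for the 3 tables with 2 libraries per group. IGFBP5 in the FADU tables and IGFBP4 in BFTC909 are high in libraries where GATA3 is high (41.1 and 216, 16.5, and 128).

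Overexpression was tested in FADU in normoxia. Of 8 members 0 rose with METTL4, where 8.00% of all genes tested did, and 2 fell, where 10.5% did (edgeR: 0 up and 2 down, and the same at an unadjusted p under 0.05). With RP11-390F4.3, 3 rose, where 16.5% did, and 0 fell, where 12.5% did (edgeR: 4 up and 0 down, and 3 and 0 at an unadjusted p under 0.05). With median centring 1997 genes rose and 2852 fell with RP11-390F4.3, against 2584 and 1955 as normalized. The control libraries are shared by both comparisons.

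IGFBP3 was 48.5 and 47.9 with the control vector, 62.5 and 59.0 with METTL4, and 66.9 and 58.5 in the RP11-390F4.3 columns. Both lines were above the control in each library. The log2 differences of 0.33 ± 0.06 (adjusted p = 0.00118, limma) and 0.37 ± 0.06 (adjusted p = 0.000323) were under 1.3-fold and therefore did not pass. Without the second RP11-390F4.3 column the latter was 0.46, above 1.3-fold, with 1 column left. The lines did not differ beyond their spread (0.04 ± 0.06, 95% interval -0.10 to 0.18, adjusted p = 0.614), and the sign of that difference turned with median centring (-0.04). CA9 in these normoxic lines was 9.15 and 9.39 with METTL4 and 13.2 and 13.6 in the RP11-390F4.3 columns, against 0.744 and 0.906.

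IGFBP7 was 17.1 and 16.4 with the control vector, 14.8 and 13.1 with METTL4, and 36.6 and 37.9 in the RP11-390F4.3 columns. The last pair stood apart from the rest. It rose 2.15-fold there (log2 1.11 ± 0.08, adjusted p = 9.17e-08, limma). IGFBP4 rose from 53.0 and 50.5 to 73.3 and 76.1 (log2 0.52 ± 0.06, adjusted p = 1.44e-05), and was 53.1 and 46.7 with METTL4. IGFBP6 rose from 63.4 and 56.6 to 87.7 and 82.2 (log2 0.50 ± 0.06, adjusted p = 2.56e-05), and was 53.2 and 49.0 with METTL4. Without the second RP11-390F4.3 column the 3 changes were 1.08 for IGFBP7, 0.49 for IGFBP4 and 0.54 for IGFBP6, with 1 column left.

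Set against each other, the RP11-390F4.3 columns were higher than METTL4 for 5 of 8 members (IGFBP2, IGFBP4, IGFBP5, IGFBP6 and IGFBP7), where 18.4% of all genes were, and lower for 0, where 13.3% were. With median centring 2276 genes were higher and 2992 lower, against 2876 and 2074 as normalized. The differences were 1.36 ± 0.08 on the log2 scale for IGFBP7 (adjusted p = 1.21e-08, limma), 0.72 ± 0.06 for IGFBP6 and 0.57 ± 0.06 for IGFBP4. For IGFBP5 the value of 1.83 ± 0.74 (adjusted p = 0.0495) was -0.04 without the second column, and without either METTL4 library it did not pass (adjusted p = 0.178 and 0.143). IGFBP5 was 1.10 and 1.02 with the control vector, 0.0497 and 0.181 with METTL4, and 0.0805 and 13.5 in the RP11-390F4.3 columns.

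IGFBP2 was 2.43 and 2.001 with the control vector, 1.19 and 1.22 with METTL4, and 2.17 and 2.66 in the RP11-390F4.3 columns. Its log2 change with METTL4 was -0.54 ± 0.15 (adjusted p = 0.0107, limma). Without the first control library (adjusted p = 0.0828) or the first METTL4 library (0.0593) the call ended. IGF2R was 244 and 255 with the control vector, 192 and 189 with METTL4, and 211 in both RP11-390F4.3 columns. It fell by 0.39 ± 0.04 with METTL4 (adjusted p = 9.38e-06), and at -0.36 without the second control library and -0.38 without the second METTL4 library it no longer met that size. IGF1R was 212 and 213, 205 and 213, and 264 and 277. It was higher in both RP11-390F4.3 columns, by 0.35 ± 0.04, which is short of 1.3-fold.

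**Figure D5:**
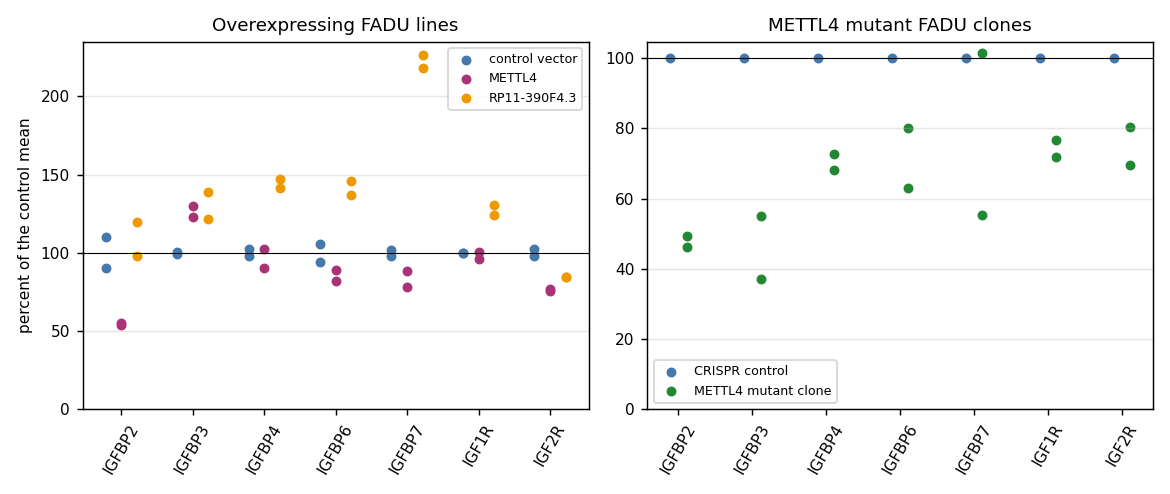
Values of 7 members (IGFBP5 is left out) as a percentage of the control mean (y axis from 0) in each library of the overexpressing lines (left) and the mutant clones in hypoxia (right). IGFBP7 is above 200% in both RP11-390F4.3 columns, and in the clones IGFBP3 is at 55.2% and 36.95% and IGFBP2 at 46.1% and 49.3% of the single control.

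The mutant clones in hypoxia were compared with 1 control library, so there was no test, and intervals cover counting error only. For these libraries 1 read was taken as the estimated step between values, at which the lowest values were 10 or 11 reads. IGFBP3 was 188 in the control, 104 in clone 1 and 69.4 in clone 2, which is 55.2% (95% exact interval 52.9% to 57.5%) and 36.95% (35.2% to 38.8%) of the control. Both clones were lower, and they differed from each other by more than their counting intervals. CA9 was 29.8, 10.4 and 15.2.

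Of the 7 members measured, 4 were lower by at least 1.3-fold in both clones (IGFBP2, IGFBP3, IGFBP4 and IGF1R), where 11.8% of all genes were, and 0 were higher, where 8.94% were. IGFBP2 was 2.97, 1.37 and 1.47 on 98, 46 and 46 reads, so that its intervals ran from 31.8% to 66.1% and from 34.0% to 70.7%. IGFBP4 was 51.9, 37.8 and 35.5, and IGF1R was 157, 120 and 113. IGFBP6 was 43.6, 34.9 and 27.5 and IGF2R was 182, 146 and 126, and each passed the fold in clone 2 only. IGFBP7 was 11.8 in the control, 11.98 in clone 1 and 6.54 in clone 2, so the clones lay on different sides. In clone 2 alone all 7 members were lower than the control by at least 1.3-fold, where 2755 genes were lower and 2215 higher of the 15719 compared.

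Among 35 other genes of the IGF pathway, 25 were tested in FADU and 26 in BFTC909. The ligands IGF1 and INS, and IGFBP1, were not analysed here, and IGF2 in FADU stayed between 0.0447 and 0.547. In FADU hypoxia 6 of 25 rose and 3 fell, where 9.73% and 9.65% of all genes did, with a median log2 change of 0.06. The larger rises were those of STC1 (log2 1.61), a stanniocalcin that inhibits PAPPA, ADAM12 (1.31), a metalloprotease that cuts IGFBP3 and IGFBP5, and STC2 (1.27). The falls were HTRA1 (-0.76), a secreted serine protease that cuts IGFBP5, IRS2 (-0.64) and GRB14 (-0.50), which are adaptors of the receptors. In BFTC909 hypoxia 9 of 26 rose and 3 fell, where 17.9% and 18.3% of all genes did, with a median of 0.07. STC2 (1.82), HTRA1 (1.77) and PAPPA2 (1.73), a protease of IGFBP5, rose most, and IGF2BP1 (-1.34), which binds IGF2 mRNA, IRS1 (-1.11) and PAPPA (-0.64) fell. HTRA1 fell in FADU and rose in BFTC909, and its response differed between the lines by 2.53 ± 0.14 (adjusted p = 6.08e-06, limma).

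With METTL4-si against Scr-si in hypoxia, 6 of 25 pathway genes rose and 8 fell in FADU, where 12.5% and 15.3% of all genes did. In BFTC909 4 of 26 rose and 4 fell, near the 13.2% and 11.7% of all genes. The median log2 changes were -0.20 and 0.06. In FADU the largest falls were those of ADAM12 (-1.71), STC1 (-1.17) and LRP1 (-0.71), a receptor that also binds IGFBP3, and the largest rises those of IRS1 (1.28), HTRA1 (0.95) and GRB14 (0.77). In BFTC909 STC1 (-2.18), STC2 (-1.59) and IRS2 (-1.26) fell most and PAPPA (0.97), IRS1 (0.91) and GRB14 (0.78) rose most. IRS1 was 127 in the first FADU METTL4-si library against 54.9 in the second, and 99.3 in the second BFTC909 METTL4-si library against 48.9 in the first, the same libraries in which breast markers were raised. Without them its log2 difference was 0.68 in FADU and 0.40 in BFTC909. STC2 was 271 and 125 in the FADU METTL4-si libraries and did not pass there.

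With METTL4 overexpression 5 of 25 pathway genes rose and 1 fell, where 8.00% and 10.5% of all genes did. They were STC1 (log2 3.07), ADAM12 (2.15), IGF2BP2 (1.71), STC2 (1.06) and IRS2 (0.78), and HTRA1 fell by 0.55. In the RP11-390F4.3 columns 13 of 25 rose and 2 fell, where 16.5% and 12.5% of all genes did. With median centring, which turns the balance over all genes, 12 rose and 2 fell. The changes were led by STC1 (3.43), IGF2BP2 (1.17) and IRS1 (0.89), with HTRA1 (-1.08) and IGF2BP3 (-0.51) lower. STC1 was 14.9 and 11.96 with the control vector, 128 and 112 with METTL4, and 155 and 153 in the RP11-390F4.3 columns. STC1 was 64.2 and 67.3 in the mutant clones, and 68.1 in their control.

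The genes whose pattern was most like IGFBP3 were found by Pearson correlation of log2(value + 1), centred within each table, over the 21 libraries and 9013 genes. They were FBXO42 (r = 0.949), TGFBI (0.942), TMEM45A (0.938), LNPK (0.938) and ANKZF1 (0.932). These libraries share depth, line and treatment groups, so r is a description. Of the members with a mean of at least 5 in every table, IGFBP6 had r = 0.721 (rank 219), IGF1R 0.398 and IGF2R -0.0726.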

How the data were processed

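RNA-seq libraries were made by the authors with a stranded, ribosomal RNA-depleting kit and sequenced paired-end. Per the submitters' processing notes, reads were handled with Trim Galore, HISAT2, HTSeq and edgeR on hg19, and the strand setting of counting is not given in the sources used here. The deposited values are TMM-normalized CPM, a signal with 1 table for each experiment and 21 libraries in all, each table normalized on its own. Tables of the authors' own comparisons hold fold changes and p-values and were not used. For the knockdown and overexpression libraries, 100.0% of the values of up to 200 reads lay within 0.1 of a read of a whole multiple, and depth was read from them (17781791 to 25410656 reads on genes per library, the mutant libraries with a step taken as 1 read). For the mutant libraries 40.9% to 43.0% of the summed values lay on rows that name no gene and were left out.

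Samples were grouped by their labels. Genes that reached a value of 1 in 2 or more libraries entered limma 3.58.1 on log2(value + 1), a pseudocount of 1 (R 4.3.3, empirical Bayes with a variance trend) over all libraries of a table, two-sided, with Benjamini-Hochberg adjustment. Differences between lines came from 1 fit over the 12 knockdown libraries. Fold changes are on that scale and understate those of low genes. The study's own criterion used an unadjusted p, which is 1 of the alternatives. The mutant clones had 1 control and received exact 95% counting intervals, which cover counting error only. edgeR 4.0.16 was run on the whole reads as an alternative. The fits were tested on simulated data first. The other alternatives were the pseudocount, the filter, the trend, median centring, the call rule, the groups in the fit, the replicate number as a block, and leaving out each library.

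Every member was named in every table. Of the pathway list all changed genes were named where 6 or fewer changed, and otherwise those with the 3 largest changes in each direction, and the 5 genes most like IGFBP3 by correlation. Members and lists were chosen with earlier results of these data known. Python 3.11.15, pandas 2.3.3 and matplotlib 3.10.9 were used for tables and plots.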

Additional observations from a re-analysis of the deposited data

Results flagged for a closer look

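The response of IGFBP3 differed between the cell lines in the test of the difference itself. Its hypoxia response was larger in BFTC909 by 1.43 ± 0.24 on the log2 scale (adjusted p = 0.00219, limma), with 4.15 in BFTC909 and 2.72 in FADU. Its METTL4-si effect differed by -1.45 ± 0.24 (adjusted p = 0.00203), with -3.93 and -2.49. The hypoxia libraries are shared by both differences.

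IGFBP6 differed between the lines as well, by 0.39 ± 0.12 in its hypoxia response (adjusted p = 0.0394, limma). Its METTL4-si effect differed by -0.56 ± 0.12 (adjusted p = 0.00865, limma). IGFBP5 and IGFBP4 had larger differences in hypoxia response than IGFBP6 but did not pass the test. No group held enough libraries for a test of single outlying values.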

How the results depend on the processing

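Of 28 member changes that passed, 10 kept their call in every alternative, and of 515 settings of those changes 440 kept it. Of the 50 that did not pass, 23 passed in none. Few reads lie behind genes near 1 CPM (IGFBP2 and IGFBP5 in FADU, IGFBP4 in BFTC909).

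Counts of changed members moved as follows, with causes not tested. At 2-fold, 1 of 2 remained in number for FADU hypoxia, 0 of 1 for FADU METTL4-si against normoxia, 1 of 2 for BFTC909 METTL4-si, 1 of 2 for each difference between lines, 0 of 2 for METTL4 overexpression, 1 of 3 for RP11-390F4.3, 2 of 5 for RP11-390F4.3 against METTL4, and 0 of 4 for the clones. With the compared groups alone, which leaves fewer libraries, FADU hypoxia gave 4, FADU METTL4-si 1 against 3, BFTC909 hypoxia 5 against 3, BFTC909 METTL4-si against normoxia 1 against 3, and the hypoxia difference between lines 4. A pseudocount of 5 gave 1 for that difference, 1 for METTL4 overexpression, 3 for RP11-390F4.3 against METTL4 and 2 for the clones. A mean of at least 5 gave 1 and 3 for the same overexpression comparisons, with fewer members tested, and no trend gave 1 for BFTC909 METTL4-si against normoxia. Without the libraries with raised breast markers, an alternative chosen after seeing the data, some groups held 1 library, so counts are not given.

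Leaving out 1 library gave 1 to 4 for FADU hypoxia and for FADU METTL4-si, 0 to 4 for FADU METTL4-si against normoxia, 3 to 5 for BFTC909 hypoxia, 2 to 4 for BFTC909 METTL4-si, 1 to 3 for it against normoxia, 1 to 3 and 2 to 4 for the differences between lines, 1 to 3 for METTL4 overexpression, 3 to 5 for RP11-390F4.3, 4 to 6 for the last pair, and 4 to 7 for single clones.

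Signs turned in 16 changes. Without the libraries with raised breast markers the log2 differences were -0.25 for IGFBP5 in FADU METTL4-si, -0.31 for IGFBP5 and -0.029 for IGF1R in FADU METTL4-si against normoxia, -0.26 for IGF1R in BFTC909 METTL4-si, -0.26 for IGFBP4 in the METTL4-si difference between lines, -0.016 for IGFBP2 and -0.93 for IGFBP5 in RP11-390F4.3, and -0.043 for IGFBP5 in RP11-390F4.3 against METTL4, which alone among these had passed. Median centring gave -0.043 for IGFBP3 in RP11-390F4.3 against METTL4.

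With single libraries left out, the values that turned ranged as follows. In FADU METTL4-si IGFBP5 was -0.25 to 5.34 and IGF1R -0.53 to 0.058. In FADU METTL4-si against normoxia IGFBP4 was -0.42 to 0.14, IGFBP5 -1.71 to 3.88 and IGF1R -0.074 to 0.51. In BFTC909 IGF1R with METTL4-si was -0.26 to 0.53, and IGFBP3 with METTL4-si against normoxia was -0.062 to 0.49. Between lines IGF2R was -0.014 to 0.047 for hypoxia, and for METTL4-si IGFBP4 was -0.55 to 2.60 and IGF1R -0.030 to 0.77. With METTL4 overexpression IGFBP4 was -0.14 to 0.037 and IGF1R -0.055 to 0.0038. In RP11-390F4.3 IGFBP2 was -0.016 to 0.19 and IGFBP5 -0.93 to 2.82, and against METTL4 IGFBP3 was -0.055 to 0.14 and IGFBP5 -0.043 to 3.71.

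The labels do not say what a replicate number shares, and only 2 numbers exist. The replicate differences of the FADU normoxia and METTL4-si groups correlated across genes (r = 0.648), and the other pairs of groups gave -0.0652 to 0.154. With the replicate block, 2, 3 and 1 members changed in the 3 FADU comparisons, 4, 3 and 3 in BFTC909, 2 and 2 between lines, and 3 with METTL4 overexpression. The block brought IGFBP5 in BFTC909 METTL4-si past the test (adjusted p = 0.0205). The RP11-390F4.3 columns carry no number, so no block could be fitted there. edgeR on whole reads called 1758 genes up and 1440 down in FADU hypoxia, 2785 and 2712 in BFTC909 hypoxia, and 1225 and 1804 with METTL4 overexpression.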
